A study of Mus musculus with 6 samples.

Results

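Chromatin accessibility was examined at 10 genes of glycolysis, Slc2a1, Hk1, Hk2, Pfkl, Pfkp, Pfkfb3, Aldoa, Pgk1, Pkm and Ldha, in nephron progenitor cells of CD1 mice. The cells came from embryos at E14.5 (3 libraries) or from pups on the day of birth, P0 (3 libraries), all untreated and with no engineered allele named in the labels. Each library was made from 50000 cells of 1 litter, whose kidneys (up to 24) were pooled and digested before cells carrying the integrin Itga8 were captured on antibody-coated magnetic beads. Accessibility was read by ATAC-seq, where open DNA is cut and tagged by Tn5 transposase, so that a region's count rises with its accessibility. A region was assigned to a gene when its midpoint lay in the gene body or within 10 kb of it, which gave 22 of the 43523 distinct regions of the deposited table. Of these, 18 were in the table's promoter class (14097 regions in the whole table) and 4 lay outside it (29426 in the whole table). Each of the 10 genes had at least 1 region, and Slc2a1, with 4, had the most.

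Glycolysis breaks glucose down to pyruvate in the cytosol and yields ATP without oxygen. Glucose enters the cell through transporters such as Slc2a1, is trapped by hexokinases (Hk1, Hk2), passes the committed step at phosphofructokinase (Pfkl, Pfkp), and reaches pyruvate through enzymes that include Aldoa, Pgk1 and Pkm, after which Ldha converts pyruvate to lactate. Nephron progenitors are known to rely on glycolysis while they renew themselves, and Pfkfb3, which makes the activator of phosphofructokinase, is among the regulators of that flux. Several of these genes are textbook targets of the hypoxia-inducible factors and of Myc. The stage comparison asked whether the accessibility of these genes differed between progenitors of the midgestation and the newborn kidney.

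Promoters of Slc2a1, Hk2, Pfkp, Pfkfb3, Aldoa, Pgk1 and Ldha are shown first, because their sequences carry features that the gene list did not use. Each line gives the 150 bases before an annotated start, 5′ to 3′ on the strand of the gene, from RefSeq (GRCm38.p6). Capitals mark ACGTG, the core of the hypoxia response element, CACGTG, the E-box bound by Myc-Max and Usf, which contains ACGTG on both strands, and GGGCGG, the GC box. On the opposite strand they read CACGT and CCGCCC. Pfkp is included as a promoter without ACGTG. Not shown are the stretches of Pkm, of the upstream Pfkfb3 start, and of Pfkl and Hk1, the last 2 genes holding none of these motifs there. Of the 3 starts of Aldoa and the 2 of Ldha, the one shown is the one whose stretch held ACGTG, the other stretches of these genes holding none.
Slc2a1: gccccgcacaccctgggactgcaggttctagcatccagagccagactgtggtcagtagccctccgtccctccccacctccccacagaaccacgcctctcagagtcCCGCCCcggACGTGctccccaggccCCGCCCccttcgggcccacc
Hk2: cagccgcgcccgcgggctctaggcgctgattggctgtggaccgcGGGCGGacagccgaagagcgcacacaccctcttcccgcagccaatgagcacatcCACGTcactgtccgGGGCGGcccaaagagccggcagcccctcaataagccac
Pfkp: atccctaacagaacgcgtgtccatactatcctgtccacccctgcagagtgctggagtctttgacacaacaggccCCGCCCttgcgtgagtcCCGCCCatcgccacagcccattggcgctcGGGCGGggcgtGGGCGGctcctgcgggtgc
Pfkfb3: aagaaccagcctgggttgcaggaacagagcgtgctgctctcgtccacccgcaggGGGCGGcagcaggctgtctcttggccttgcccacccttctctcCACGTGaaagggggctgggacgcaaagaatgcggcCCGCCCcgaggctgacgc
Aldoa: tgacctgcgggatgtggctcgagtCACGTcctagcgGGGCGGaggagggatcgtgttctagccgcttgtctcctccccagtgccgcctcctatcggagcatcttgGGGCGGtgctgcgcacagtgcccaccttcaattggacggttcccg
Pgk1: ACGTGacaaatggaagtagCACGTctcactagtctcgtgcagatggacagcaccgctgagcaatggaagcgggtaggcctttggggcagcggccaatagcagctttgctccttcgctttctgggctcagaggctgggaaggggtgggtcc
Ldha: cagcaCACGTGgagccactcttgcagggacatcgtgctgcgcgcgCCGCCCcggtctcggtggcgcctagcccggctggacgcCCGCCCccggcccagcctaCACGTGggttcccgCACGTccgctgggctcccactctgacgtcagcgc

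The Slc2a1 stretch (chr4:119108595-119108744, plus strand) held 1 ACGTG, 36 bases before the start and between 2 GC boxes. The Hk2 stretch (chr6:82774455-82774604, minus strand) also held 1 ACGTG, 52 bases before the start, with 2 GC boxes. In Pfkfb3 (chr2:11502091-11502240, minus strand) an E-box lay 53 bases before its downstream start, and in Ldha (chr7:46845654-46845803, plus strand) 2 E-boxes lay 145 and 48 bases before the start and a further ACGTG 34 bases before it. The Aldoa stretch (chr7:126799255-126799404, minus strand) held 1 ACGTG and 2 GC boxes. The Pgk1 stretch (chrX:106186950-106187099, plus strand) held 2 matches to ACGTG and no GC box. The Pfkp stretch (chr13:6648772-6648921, minus strand) held 4 GC boxes.

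Both strands of 300-base windows (250 bases before each start to 50 after) were searched at every RefSeq start of the 10 genes, 16 windows in all. ACGTG was present in windows of 8 of the 10 genes (Slc2a1, Hk1, Hk2, Pfkfb3, Aldoa, Pgk1, Pkm and Ldha) and in 10 of the 16 windows, while it was present in 19.6% of the 32851 windows of the RefSeq table. Among the 12438 windows lying wholly within a deposited promoter region, 26.4% held it, against 10 of the 14 such windows of these genes. CACGTG was found in 2 of the 16 windows, 1 each of Pfkfb3 and Ldha, against 7.15% of all windows, and in 2 of the 14 within a promoter region, against 10.3%. GGGCGG was found for every gene but Hk1, in 11 of the 16 windows against 35.7% of all windows, and in 11 of the 14 within a promoter region against 67.8%. The windows were rich in G and C: 14 of 16 lay above the median GC content of all windows (52.7%), with a range of 51.3% to 69.7%. These are matches of letters and were not tested as binding sites, and windows of 1 gene can overlap.

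Of the 16 windows, 15 touched a deposited region. The exception was the upstream of the 2 Hk1 starts. The other Hk1 start, well inside the gene, lay in an accessible region (chr10:62339458-62341068, midpoint 39.6 kb from the upstream start). The table lists that region as the promoter of 2210417K05Rik, and RefSeq places the start of Hk1os in it, so its counts cannot be assigned to Hk1 alone. The start regions of Slc2a1, Pfkfb3 (downstream start) and Pkm likewise hold a start of another RefSeq gene (Gm52706, Gm52500 and Gm51708). The region at the start of Pkm is listed under the older symbol Pkm2. Pfkfb3 had a region at each of its 2 starts. A further 7 promoter-class regions held no RefSeq start of the assigned gene. They are listed as promoters of Gm12868 (near Slc2a1), 1810043G02Rik (near Pfkl, where RefSeq places the start of Cfap410), Ppp4c and Gm15676 (near Aldoa), Gramd2 (near Pkm), ENSMUSG00000102376 (within Pfkfb3) and Pfkp itself (62.4 kb into the gene, with no RefSeq start there). Whether 1810043G02Rik and Cfap410, or 2210417K05Rik and Hk1os, are names of the same gene was not checked. The 4 regions outside the promoter class lay at Slc2a1 (2), Hk2 (1) and Pfkp (1).

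**Figure D1:**
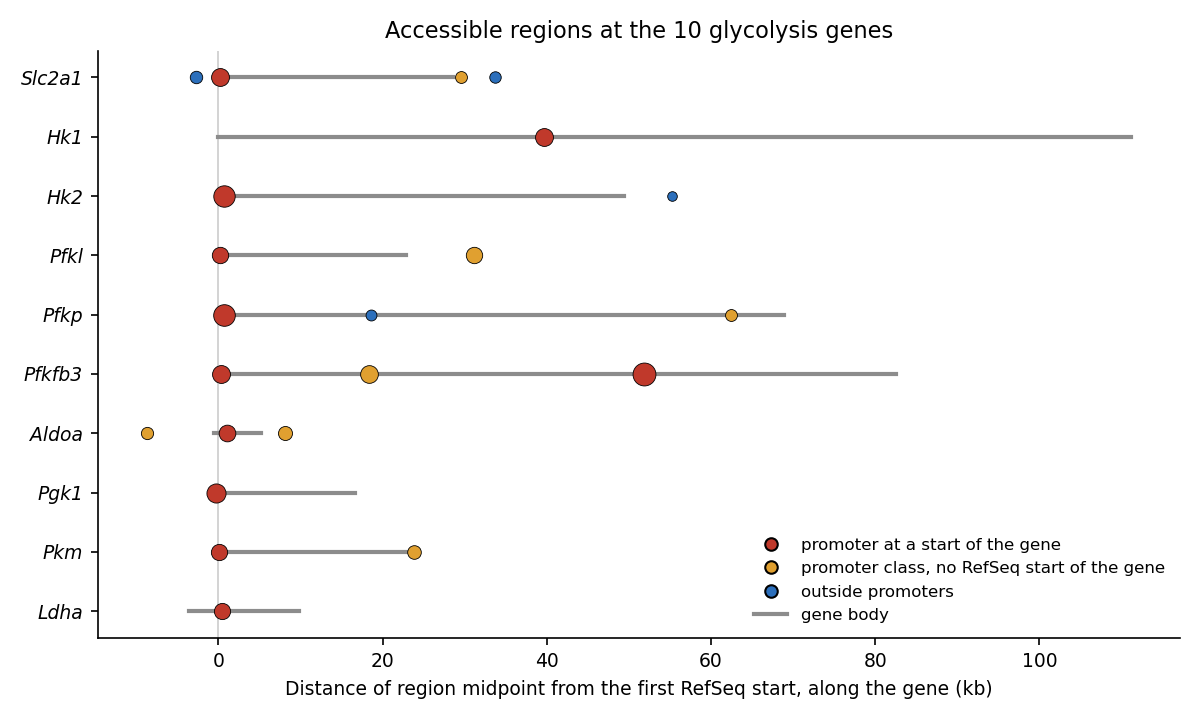
Regions at the 10 genes by distance of the region's midpoint from the first RefSeq start of the gene, in kb, with positive values pointing into the gene; grey lines are gene bodies, and the size of a point grows with its mean count (CPM, over 6 libraries). A region at a start of the gene carried the highest mean CPM at 9 of the 10 genes, the exception being Pfkl, whose neighbouring promoter was level with its own, and the Hk1 region lay well inside the gene body. Per kb of region, a neighbouring promoter lay above the start region at Pfkl (22.9 against 13.8 CPM) and at Aldoa (16.1 against 12.6 CPM).

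Accessibility was compared between genes per length, as CPM (counts scaled with TMM to a library size of 1000000) per kb of region, at the region with most counts among those at a start of the gene. Slc2a1, the glucose transporter, stood first with 35.7 ± 7.75 CPM per kb (SD over the 6 libraries), followed by Pfkfb3 with 30.9 ± 4.18, Hk2 with 29.9 ± 4.23 and the platelet-type phosphofructokinase Pfkp with 29.2 ± 1.54. Pgk1 (phosphoglycerate kinase) had 26.2 ± 4.53 and Hk1 25.9 ± 4.19 CPM per kb. Pkm (pyruvate kinase) followed with 16.7 ± 3.56, Pfkl (the liver-type phosphofructokinase) with 13.8 ± 2.26, Aldoa (aldolase) with 12.6 ± 2.58 and Ldha (lactate dehydrogenase) with 10.7 ± 1.40. Each gene's range over the 6 libraries overlapped that of the next gene in this order. The ends of the order were apart: in every library, Slc2a1, Pfkfb3, Hk2 and Pfkp lay above the highest library of Pkm, Pfkl, Aldoa and Ldha, whose highest value was 21.6 CPM per kb. Against all 14097 promoters, 8 of the 10 genes lay above the median of 12.8 CPM per kb, with percentiles from 38.3 for Ldha to 90.0 for Slc2a1. The 2 phosphofructokinase genes were apart in this order, every library of Pfkp lying above every library of Pfkl. The order depends on the length of the regions, from 1166 bases at Slc2a1 to 2857 at Ldha. By mean CPM without regard to length, Slc2a1 had 41.7, below Pfkfb3 (85.9), Pfkp (73.0), Hk2 (71.1) and Pgk1 (51.4).

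**Figure D2:**
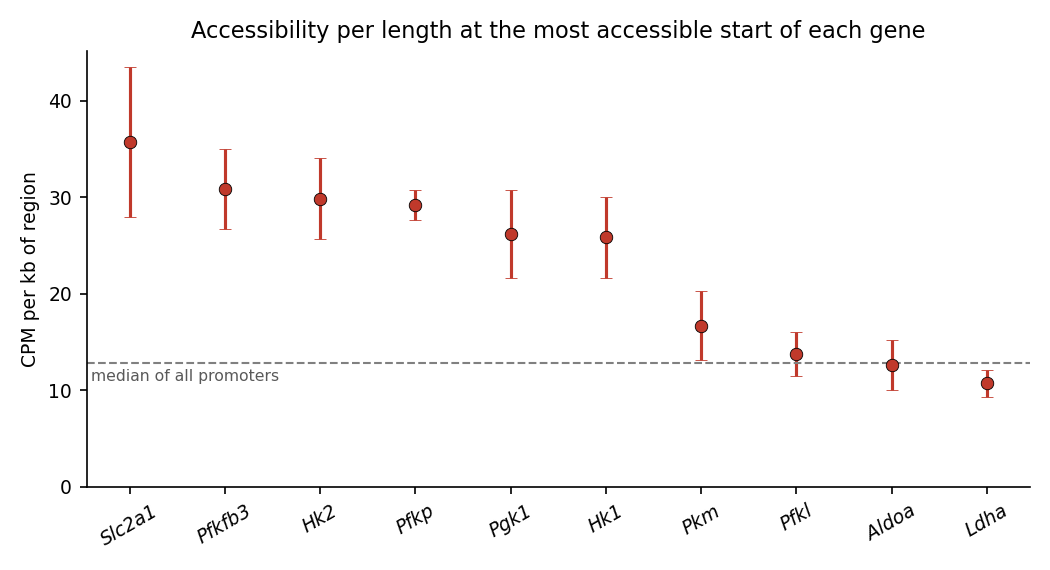
Mean CPM per kb of region (points) with the SD over the 6 libraries (bars) at the most accessible start of each gene, and the median of all promoters (dashed line, 12.8). Means fell from 35.7 at Slc2a1 to 10.7 at Ldha, and neighbours in the order overlapped.

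Libraries held 6492996 to 12292629 counts in regions, the lowest being P0 replicate 2. That library also had the smallest share of its counts in promoters (53.4%, against 56.1% to 62.2% in the other 5) and the lowest CPM in 12 of the 18 promoters of these genes (66.7%), while it was lowest in 49.4% of all promoters. Among markers of the cells, 7 of 8 nephron progenitor genes had a region (Meox1 had none), with a summed level of 331 to 341 CPM at E14.5 and 293 to 332 CPM at P0. Of their 18 regions, 9 had a log2 fold change above 0 and 9 below it, with a median of 0.03. The 2 that passed the test, intronic regions at Eya1 and at Itga8, the antigen used for selection, were lower at P0 (log2 fold change -1.43 and -1.31, edgeR adjusted p = 0.0037 and 0.012). At an unadjusted p under 0.05, 2 further regions, at Eya1 and Gdnf, lay above 0 (0.73 and 0.72). Of the 12 separate regions of differentiating-nephron genes, 9 lay above 0 and 3 below (those of Lhx1 and Ccnd1), and 1 region at Pax8 passed the test (log2 fold change 0.98, edgeR adjusted p = 0.0127). At an unadjusted p under 0.05 there were 5 of the 12, 4 above 0 (Pax8 and Jag1) and 1 below (Lhx1). The Pax8 region that passed lay outside promoters. Over all regions outside promoters, 6.59% passed in edgeR, 23.5% were under 0.05 unadjusted and 40.7% lay below 0. Over all promoters these shares were 0.851%, 8.73% and 66.0%. Of the 6 regions of endothelial genes, 4 lay above 0 and 2 below, and 1 at Cdh5, an endothelial cadherin, passed (log2 fold change 0.93, edgeR adjusted p = 0.0411). Summed levels of the 4 differentiating-nephron genes with a region, overlapping regions of Ccnd1 counted once, ran from 278 to 308 CPM at E14.5 and from 288 to 370.2 CPM at P0, and those of the 3 endothelial genes from 105 to 134 and from 119 to 129 CPM. No region of the stromal (5 of 6 genes with a region), ureteric bud (5 of 6) or immune and blood (2 of 6) lists passed the test (edgeR, DESeq2 and limma-voom, 0 regions each, with 0 at an unadjusted p under 0.05 in edgeR). Their summed levels ran from 216 to 233, from 168 to 198 and from 73.0 to 87.5 CPM at E14.5, and from 197 to 247, from 154 to 177 and from 59.0 to 80.8 CPM at P0. Wnt4, Fgf8, Pdgfra, Pecam1, Emcn, Wnt9b, Csf1r, Alas2 and Hbb-b1 were among the marker genes with no region. The part of these differences in the values below was not tested, and in pooled cells a lower level in each cell cannot be told apart from fewer cells in which the region is open.

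No difference between the stages was detected at any of the 22 regions. In edgeR's quasi-likelihood test, fitted on all regions, 0 of the 18 promoters passed an adjusted p of 0.05, where 0.851% of all promoters and 4.73% of all regions did. At an unadjusted p under 0.05 there were 2 of the 18, Slc2a1 and Aldoa, beside 8.73% of all promoters. Over all 22 regions that count of 2 was 0 with total-count scaling, with TMM from promoters alone, and after leaving out either P0 replicate 2 or E14.5 replicate 3, and it was 4 without P0 replicate 3. DESeq2 and limma-voom also called 0 of the 18, each with 2 at an unadjusted p under 0.05. Of the 4 regions outside the promoter class, edgeR, DESeq2 and limma-voom called 0, with 0 at an unadjusted p under 0.05 in each, where 6.59% of all such regions were called and 23.5% were under 0.05 unadjusted in edgeR. The 95% interval of the log2 fold change excluded a doubling and a halving at P0 for 18 of 18 promoters, and for 3 of the 4 other regions. Smaller differences remained within the intervals.

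The median of the 18 promoters was close to that of the whole class. Their median log2 fold change (P0 against E14.5) was -0.11, with a range of -0.45 to 0.29, and that of all promoters was -0.10. Of the 18, 12 lay below 0 (66.7%), as did 66.0% of all promoters. With scaling factors taken from promoters alone, which moved the median of all regions from 0.01 to 0.12, the median of the 18 was -0.02 and that of all promoters -0.0015. In 5 of the 18 promoters the P0 libraries did not overlap those of E14.5, beside 16.7% of all promoters. All 5 were lower at P0, which held for 12.1% of all promoters: the start regions of Slc2a1, Hk2, Pfkp and Aldoa, and the region of 1810043G02Rik near Pfkl. Groups overlapped in all 4 regions outside the promoter class, where 27.8% of such regions did not overlap in the whole table. The median log2 fold change of these 4 was -0.10, with 3 below 0. That of all regions outside promoters was 0.10, with 40.7% below 0.

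**Figure D3:**
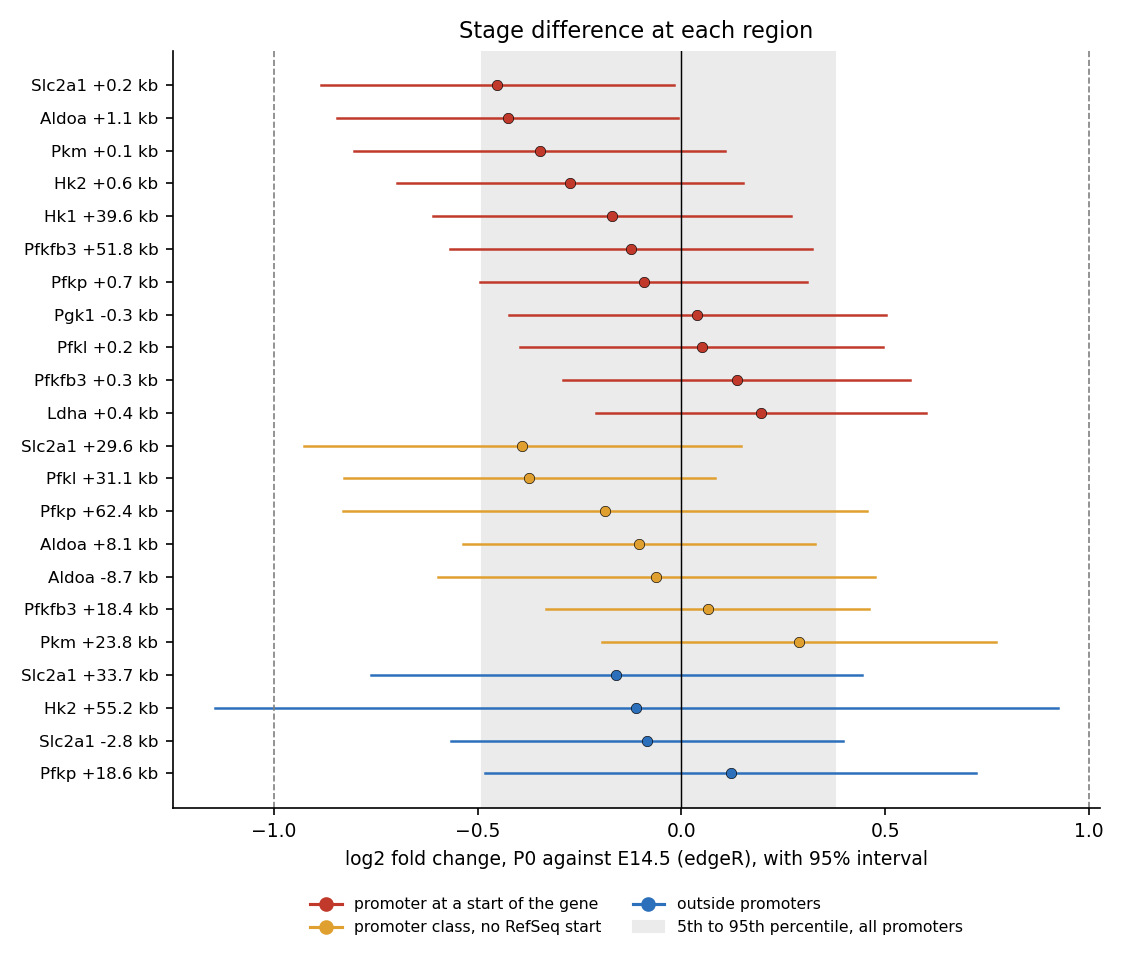
Log2 fold change of P0 against E14.5 (points) with its 95% interval (lines) for the 22 regions, named by gene and distance of the region from the first start; grey shading spans the 5th to 95th percentile of all promoters (-0.49 to 0.38), and dashed lines mark a halving and a doubling. All points lay within the shading, and the interval of the distal Hk2 region alone crossed a dashed line.

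Glucose entry and phosphorylation came first in the pathway. At the start of Slc2a1 (chr4:119108329-119109494), CPM were 48.0, 42.2 and 54.3 in E14.5 replicates 1 to 3 and 41.0, 28.5 and 35.9 in P0 replicates 1 to 3. The 3 P0 libraries lay below the 3 of E14.5, and the closest pair of libraries differed by little (42.2 and 41.0). The log2 fold change was -0.45 (SE 0.20, 95% interval -0.88 to -0.02). It did not pass the correction (edgeR adjusted p = 0.244). Over 15 other settings it stayed between -0.59 and -0.32, with adjusted p from 0.177 to 0.627. At the start of Hk2 (chr6:82772636-82775016), the hexokinase induced in many fast-growing cells, CPM were 74.3, 80.0 and 79.5 at E14.5 and 70.3, 52.5 and 70.3 at P0. P0 replicate 2 was the lowest by a wide margin, and the log2 fold change was -0.27 (SE 0.20, edgeR adjusted p = 0.508), or -0.15 without that library. Hk1, the broadly expressed hexokinase, had 47.5, 36.5 and 48.6 CPM at E14.5 and 35.7, 34.4 and 47.3 CPM at P0 in its shared region. The stages overlapped there, with a log2 fold change of -0.17 (SE 0.21, edgeR adjusted p = 0.720) that ran from -0.35 (without P0 replicate 3) to -0.07 (TMM from promoters alone) over 15 other settings.

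Phosphofructokinase, the committed step, is represented by Pfkp and Pfkl. Pfkp (chr13:6646836-6649332) was the most even of the 10 start regions at E14.5, with 76.0, 74.4 and 75.7 CPM, and had 71.9, 65.7 and 74.2 CPM at P0. Although the groups did not overlap, the difference was small, at -0.09 on the log2 scale (SE 0.19, edgeR adjusted p = 0.846), and its sign changed under 2 other scalings. Pfkl (chr10:78008445-78010743) had 29.7, 28.2 and 35.9 CPM at E14.5 and 33.4, 24.5 and 38.5 CPM at P0. The P0 values enclosed those of E14.5, with a log2 fold change of 0.05 (SE 0.21, edgeR adjusted p = 0.935). It was -0.03 without E14.5 replicate 2, -0.12 without P0 replicate 3 and 0.21 without P0 replicate 2.

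Pfkfb3, whose product makes fructose 2,6-bisphosphate, was accessible at both of its starts. The downstream one (chr2:11500762-11503544), with the most counts of all 22 regions, had 84.1, 94.0 and 90.7 CPM at E14.5 and 81.2, 66.1 and 99.1 CPM at P0. P0 held both the lowest and the highest library, and the log2 fold change was -0.12 (SE 0.21, edgeR adjusted p = 0.812). The upstream start (chr2:11552271-11555007) had 38.1, 45.3 and 36.4 CPM at E14.5 and 45.6, 35.7 and 50.045 CPM at P0, a log2 fold change of 0.14 (SE 0.20, edgeR adjusted p = 0.780). Neither value was past its error, and that of the downstream start was 0.01 without P0 replicate 2 and 0.0008 with abundance-dependent scaling.

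Aldoa splits the phosphorylated sugar that phosphofructokinase makes, and Pkm forms pyruvate at the last step. At the start of Aldoa (chr7:126798012-126800691), CPM were 44.4, 34.2 and 37.8 at E14.5 and 27.5, 25.4 and 33.4 at P0. The groups did not overlap, with less than 1 CPM between the lowest E14.5 and the highest P0 library. The log2 fold change was -0.43 (SE 0.20, 95% interval -0.84 to -0.01). It did not pass the correction (edgeR adjusted p = 0.256). Over 15 other settings it ran from -0.57 to -0.32, with adjusted p from 0.1297 to 0.576. Pkm (chr9:59655766-59657623) had 40.1, 30.4 and 34.1 CPM at E14.5 and 27.9, 20.4 and 33.3 CPM at P0. Its groups overlapped through P0 replicate 3, and the log2 fold change was -0.35 (SE 0.21, edgeR adjusted p = 0.419), or -0.18 without P0 replicate 2 and -0.54 without P0 replicate 3.

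Pgk1 and Ldha lay slightly above 0. Pgk1 (chrX:106185796-106187757) had 45.4, 50.7 and 56.2 CPM at E14.5 and 54.9, 37.8 and 63.2 CPM at P0, so that P0 spanned the whole E14.5 range. Its log2 fold change was 0.04 (SE 0.22, edgeR adjusted p = 0.951) and changed sign when E14.5 replicate 1, P0 replicate 1 or P0 replicate 3 was left out. As the X-linked member it is read beside the share of counts on the X chromosome, which was 2.43% ± 0.138 in E14.5 libraries and 2.66% ± 0.0289 in P0 libraries (SD, n = 3), without overlap. The exact permutation p of that share was 0.1, the smallest that 3 against 3 libraries can give, and its part in the value of Pgk1 was not tested. Ldha (chr7:46844811-46847667), the promoter with 2 E-boxes, had 27.2, 28.5 and 30.1 CPM at E14.5 and 28.9, 30.7 and 38.4 CPM at P0. It was the 1 start region of the 10 in which P0 replicate 2 was not the lowest library, and its log2 fold change was 0.20 (SE 0.19, edgeR adjusted p = 0.639), or 0.04 without P0 replicate 3.

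**Figure D4:**
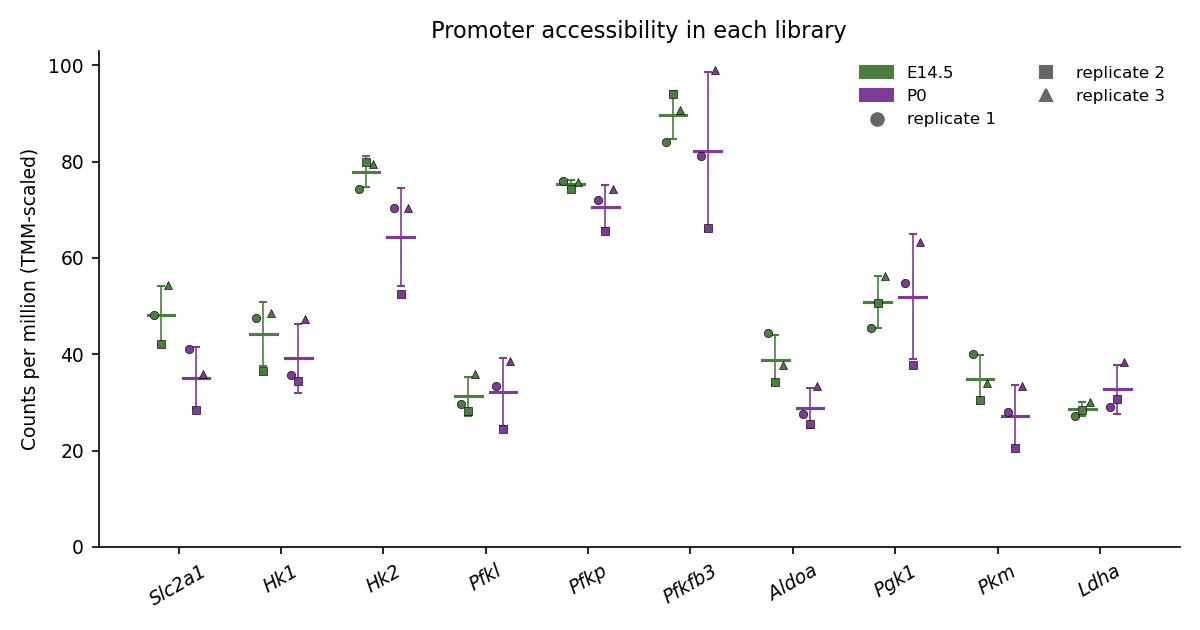
TMM-scaled CPM in each library at the start region of each gene, with symbols for replicates, lines for stage means and bars for the SD (n = 3 per stage). Values ran from 20.4 (Pkm, P0 replicate 2) to 99.1 CPM (Pfkfb3, P0 replicate 3), and P0 replicate 2 (square) was the lowest library at 9 of the 10 genes.

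Among the 7 promoter-class regions without a start of the gene, 1 had groups that did not overlap. The region listed for 1810043G02Rik near Pfkl (chr10:77978025-77979411) had 38.0, 34.2 and 35.6 CPM at E14.5 and 29.2, 19.5 and 33.9 CPM at P0. The groups did not overlap, by a gap of less than 1 CPM, and the log2 fold change was -0.37 (SE 0.21, edgeR adjusted p = 0.379). The Gramd2 promoter at the 3′ end of Pkm had the highest fold change of the 22 regions, 0.29 (SE 0.23, edgeR adjusted p = 0.545), opposite in sign to the start of Pkm. The other 5 ranged from -0.39 (Gm12868) to 0.06 (ENSMUSG00000102376).

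Few regions lay outside promoters, and their level per kb was above the median of such regions for 2 of the 4, both at Slc2a1. Those 2 overlap an enhancer of the FANTOM collection, as the table lists it. The upstream one (chr4:119105690-119106233, 2.8 kb before the start) had 12.6, 13.8 and 10.4 CPM at E14.5 and 11.5, 10.3 and 12.8 CPM at P0, a log2 fold change of -0.09 (SE 0.23, edgeR adjusted p = 0.887). Its 21.8 CPM per kb placed it at percentile 96.9 of regions outside promoters. That region was short, with 544 bases against a median of 1477 for regions outside promoters. The second Slc2a1 region, beyond the 3′ end, had a log2 fold change of -0.16 (SE 0.28). In the intron of Pfkp (chr13:6629672-6630637), where the table lists a motif of Six2, a defining factor of nephron progenitors, CPM were 7.24, 5.43 and 6.77 at E14.5 and 5.93, 8.02 and 7.18 at P0, with a log2 fold change of 0.12 (SE 0.28, edgeR adjusted p = 0.870) that was -0.01 without E14.5 replicate 2 and 0.21 without either E14.5 replicate 1 or P0 replicate 1. The region beyond the 3′ end of Hk2 (chr6:82718492-82720035) had 3.91, 3.07 and 3.85 CPM at E14.5 and 3.44, 5.90 and 1.11 CPM at P0, from 14 to 39 counts a library. Its interval, -1.14 to 0.92 on the log2 scale, did not exclude a halving, and its estimate ran from -0.70 to 0.34 over the other settings.

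Counts summed over the promoters of a gene were tested across all genes with a promoter region. None of the 10 genes passed (edgeR, 0 at an adjusted p of 0.05, where 0.223% of 20154 genes did), and 1, Slc2a1, had an unadjusted p under 0.05. The share of all genes under 0.05 unadjusted was not counted, for these sums or for those outside promoters. Over its 2 promoters Slc2a1 had 59.3 ± 6.78 CPM in E14.5 libraries and 43.6 ± 5.09 CPM in P0 libraries (SD, n = 3), and edgeR gave an adjusted p = 0.465. For regions outside promoters, 0 of 3 genes passed in edgeR, with 0 at an unadjusted p under 0.05, where 2.14% of 14090 genes passed. Summed over all 18 promoters, the level was 703 ± 19.4 CPM in E14.5 libraries and 642 ± 92.1 CPM in P0 libraries (SD, n = 3), with a two-sided exact permutation p of 0.4. By library these were 698, 686 and 724 CPM, then 654, 545 and 728 CPM, so that P0 held both extremes. The difference of -60.5 CPM was -11.9 without P0 replicate 2 and -103 without P0 replicate 3. As a share of all counts in promoters, the 18 held 0.116% ± 0.0098 in E14.5 libraries and 0.116% ± 0.0116 in P0 libraries (SD, n = 3), with an exact permutation p of 0.9. The 4 other regions summed to 31.2 ± 1.95 CPM at E14.5 and 30.03 ± 3.42 CPM at P0 (exact permutation p = 0.6).

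In the authors' deposited table the smallest adjusted p-values among the 22 regions were 0.267, at the start of Aldoa, and 0.271, at the start of Slc2a1. Log2 fold changes in the authors' deposited table were -0.42 and -0.37 there.

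The rest of glucose metabolism was read from 6 lists of 45 other genes, 39 of which had a region (67 regions, 50 of them promoters). None of the 67 passed in edgeR, DESeq2 or limma-voom, and 5 had an unadjusted p under 0.05 in edgeR, 2 of the 50 promoters and 3 of the 17 other regions, where 8.73% of all promoters and 23.5% of all other regions did. Their median log2 fold change was -0.11. Medians by list were -0.07 for other transporters and hexokinases (12 regions), -0.10 for other glycolytic enzymes (17), -0.12 for regulators of phosphofructokinase (8), -0.10 for pyruvate and lactate handling (19), -0.16 for gluconeogenesis (6) and -0.18 for the pentose phosphate pathway (5). The smallest adjusted p was at an intronic region of Slc2a3, a high-affinity glucose transporter (chr6:122795191-122795945), chosen here after its values were seen. It had 5.80 ± 0.705 CPM at E14.5 and 10.6 ± 2.37 CPM at P0 (SD, n = 3), a log2 fold change of 0.87 (SE 0.27, edgeR adjusted p = 0.0876).

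Motif names listed in the table were counted in the 18 promoters beside all promoters. E2f motifs were listed in 6 of the 18 promoters (33.3%, against 33.6% of all promoters), Maz in 7 (38.9% against 38.1%) and Sall in 5 (27.8% against 26.8%). Forkhead motifs were listed in 4 (22.2% against 15.3%), Sox in 1 (5.56% against 9.27%), Smad in 1 (5.56% against 8.28%) and motifs of the Six2 family in 0 (against 1.53%). With 18 promoters, 1 promoter more or less moves a share by 5.56 percentage points.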

How the data were processed

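ATAC-seq was deposited for 6 libraries of nephron progenitors, 3 per stage, grouped by their source names; columns were matched by title, and 0 sample columns were left unmatched. The members and lists were chosen with earlier results of these data known. Per the file headers, the deposited table gave a whole-number count per region and library, the region's width, and the authors' own comparison (log2 fold change, p-value and the t score). The build is mm10, per the submitters' processing notes. The aligner, peak caller, counting rule, Tn5 shift and handling of duplicate or multiply mapped reads are not given in the sources used here, and Aldoa, Pgk1, Pkm and Ldha have processed copies elsewhere in the genome with which reads of exons could be shared. Each library is a separate litter, per the design text.

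Of 45489 rows, 1966 repeated a region and were dropped, which left 43523. The test was the quasi-likelihood F test of edgeR 4.0.16 (R 4.3.3), applied to the counts with stage as single covariate (TMM, filterByExpr, which removed 0 regions, Benjamini-Hochberg over all regions, threshold 0.05). CPM used TMM-scaled sizes. DESeq2 1.42.0 and limma 3.58.1 (voom) were alternatives. Values per library were compared with two-sided exact permutation tests. The edgeR test was checked on simulated counts, in which it missed a part of the 2-fold changes. Depth ran from 6492996 to 12292629 counts, and the member promoters held 58 to 1255 counts a library.

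Regions named with values in every library were, for each gene, the region with most counts at its own start and the one with most counts outside promoters. The second start of Pfkfb3 and the region near Pfkl were added after their values were seen. Promoter windows came from RefSeq (GRCm38.p6); all 10 genes matched by symbol. An item among the marker genes is not reported here. Alternatives were other scalings, filters, tools, windows, promoter definitions, a replicate block and leaving out each library. To look for pairing by replicate number, the stage mean of each region was subtracted from its log CPM and the deviations were correlated. Same-numbered libraries gave 0.067, -0.14 and 0.077, which shows no sign of pairing. With 3 libraries per stage these values cannot exclude it.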

Additional observations from a re-analysis of the deposited data

How the results depend on the processing

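The count of regions past the threshold was 0 for the promoters, the other regions, the gene sums and the pathway lists under every alternative run for each. Over 13 regions (the 10 start regions and 3 outside promoters) and 15 alternatives, 11 of 195 fold changes had another sign than reported, 7 regions had none, and the smallest adjusted p was 0.1297 (Aldoa, without P0 replicate 3). Among the 15, the run without a filter repeated the main fit, since filterByExpr removed 0 regions. The run with at least 10 counts in every library kept 43436 regions and left the values nearly unchanged. The median of the promoters ranged from -0.19 to -0.03 when each library was left out, the latter without P0 replicate 2, and was -0.13 with the replicate block, which called 1834 regions in all (2059 without it) and 0 of these 22. The check of the replicate numbers gave no sign of pairing but could not exclude it, and not every library correlated best with its own number. The median of the other regions, -0.10, was 0.12 for gene bodies alone, where 1 region was left (fewer regions), 0.00009 for gene bodies with 25 kb (10 regions), -0.18 with abundance-dependent scaling, and from -0.16 (without P0 replicate 2) to -0.0026 (without E14.5 replicate 3) with a library left out, and their summed CPM changed sign with total-count scaling (0.064) and without P0 replicate 1 (0.115). Calls over all regions, 2059, rose to at most 2982 (without E14.5 replicate 2) and fell to 885 with TMM from promoters alone, to 1099 without E14.5 replicate 1, to 339 without E14.5 replicate 3 and to 474 without P0 replicate 1; the cause was not tested. With 3 litters per stage and this depth, the 95% intervals of the 10 start regions still allowed a fall of up to 1.85-fold and a rise of up to 1.52-fold.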

Other observations

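The deposited annotation also links regions to genes through listed enhancers. Of 183214 such links between a region and a gene, 998 (0.545%) lay on the chromosome of the gene. Links to the 10 glycolysis genes came from 90 regions, 0 of which shared a chromosome with the linked gene, so they were not read as targets of these genes.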
